A study of Homo sapiens with 12 samples.

Results

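The clustered protocadherin genes are the protein-coding genes whose symbols begin with PCDHA, PCDHB, PCDHGA, PCDHGB, PCDHGC or PCDHAC and end in a number. They were chosen by symbol alone, and 53 of the 19863 protein-coding genes matched to the counts met this description, 15 in the alpha cluster, 16 in the beta cluster and 22 in the gamma cluster. RNA-seq was performed in HEK293T cells, a fast-growing line that descends from HEK293 cells of human embryonic kidney, grown in normal medium and transfected with a control siRNA (siCTL) or an siRNA against CARM1, CHD4, HDAC2, GATAD2A or KDM1A, with 2 libraries per group and 12 in all. CARM1 is an arginine methyltransferase, CHD4, HDAC2 and GATAD2A are subunits of the nucleosome remodeling and deacetylase (NuRD) complex, and KDM1A is a lysine demethylase found with that complex. The 5 knockdowns share the same pair of siCTL libraries, and nothing states that replicates came from separate transfections, so p-values measure only the spread between these libraries.

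Protocadherins are cell-surface proteins of the cadherin superfamily, and the clustered ones are best known in neurons, where each cell displays its own combination and uses it to tell its own branches from those of other cells. In the alpha and gamma clusters each gene has its own large variable exon with its own promoter, and that exon is spliced to constant exons shared by the whole cluster, whereas beta genes consist of a variable exon alone. Promoter choice is known to depend on CTCF, cohesin, DNA methylation and the chromatin protein SMCHD1, and the last genes of the alpha and gamma clusters, called C-type (PCDHAC1, PCDHAC2, PCDHGC3, PCDHGC4 and PCDHGC5), are controlled apart from the rest.

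All 53 genes lie on the plus strand of chromosome 5, in GRCh37 between chr5:140165721-140892544. The alpha genes span chr5:140165721-140391932, the beta genes chr5:140430959-140628933 and the gamma genes chr5:140710081-140892544. The opening bases of the first constant exon are shown because every gene of a cluster carries them, and a read pair that touches them belongs to all 15 alpha or all 22 gamma genes at once. Both are GRCh37, plus strand, and have no capitals because no part was singled out.
Alpha constant exon, chr5:140358534-140358563: ccacgacagcccaaccctgactggcgttac
Gamma constant exon, chr5:140874374-140874403: caagccccgcccaacacggactggcgtttc
A pair that overlaps exons of more than 1 gene is ambiguous and was not counted, so alpha and gamma counts come from the bases that belong to 1 gene. These made up a median of 53.4% of the exonic bases of an alpha gene (43.4 to 78.6%), 56.2% of a gamma gene (35.6 to 72.5%) and 100% of a beta gene (90.5 to 100%). Copies of the genes resemble each other, and pairs that map to several places were not counted either. Of the stretches of 100 bases within these regions, a median of 97.4% occurred only once in the 3 clusters, with the lowest shares in PCDHB8 (74.5%), PCDHA7 (77.7%) and PCDHB10 (82.3%).

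Many promoters of clustered protocadherins are known for a conserved sequence element with CGCT at its core. Stretches that hold such letters are shown because each of these genes is read from a promoter of its own. RefSeq promoters (GRCh38.p14, 250 bases before to 50 after the start) were present for 47 of the 53 symbols, in 52 entries, and PCDHA3, PCDHA13, PCDHB6, PCDHB11, PCDHGA12 and PCDHGC5 had none. CGCT, on either strand, stood in 51 of the 52 (98.1%), against 70.0% of all 35116 promoters of that length in the table. The 6 letters held by most of these promoters, found on the same promoters and containing CGCT, were CGCTGT, which stood on either strand in 29 of 52 (55.8%) against 11.2% of all promoters. They stood in 21 of 25 gamma entries (84%), 7 of 13 alpha entries and 1 of 14 beta entries. Genes described further on are shown on the plus strand in GRCh38.p14, with CGCTGT in capitals.
PCDHGB5, chr5:141397867-141397896: gactctgggcgcCGCTGTtggccaaagtgc
PCDHGB6, chr5:141407928-141407957: gcctctgggcgcCGCTGTcggccagtgcag
PCDHGA9, chr5:141402718-141402747: gactctgagcgcCGCTGTtgatcaactcta
PCDHGB2, chr5:141359925-141359954: acctctgagcgtCGCTGTtggtcaaaagaa
PCDHGC3, chr5:141475884-141475913: gactctgtgtgcCGCTGTcggccaatgaag
PCDHGC4, chr5:141484956-141484985: gagcccgggagcCGCTGTctgccaatcggg
PCDHA10, chr5:140855845-140855874: gccaccggatgtCGCTGTcgtccacaaaat
PCDHAC2, chr5:140966369-140966398: gcagtccgggttCGCTGTccgccacttcgg
PCDHGC3 and PCDHGC4, which fell, carry these 6 letters, as do many PCDHGA and PCDHGB genes that rose, though not PCDHGB3. The letters alone do not show that a promoter holds the conserved element, which was not tested. In PCDHAC2 they stood 95 bases before the start, where the median of the alpha matches on the plus strand was 44. A stretch was also sought in the beta promoters alone. The 10 letters held by most of them were GGTGGCGCTG, which also contain CGCT. They stood on either strand in 12 of 14 beta entries (85.7%), a high share that follows from that choice. They stood in 0 of 13 alpha and 0 of 25 gamma entries, and in 97 of all 35116 promoters (0.276%). Some of these beta promoters are shown, plus strand, GRCh38.p14, with the 10 letters in capitals.
PCDHB2, chr5:141094543-141094572: gaagagacgcggGGTGGCGCTGcagcctta
PCDHB5, chr5:141135178-141135207: attaggacgcctGGTGGCGCTGcaggctaa
PCDHB8, chr5:141177776-141177805: gtgaggacccgtGGTGGCGCTGcaggataa
PCDHB9, chr5:141187073-141187102: tggaagccacaaGGTGGCGCTGcagactga
PCDHB13, chr5:141213864-141213893: gtgaggacgcgtGGTGGCGCTGcaggataa
PCDHB15, chr5:141245313-141245342: aagacaacgcatGGTGGCGCTGcaggctaa
A match is a description of these letters and was not tested as a binding site.

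The libraries held 19308315 to 28648657 read pairs counted on genes. Each targeted transcript was lower in the cells that received its siRNA, with log2 fold changes of -2.37 for CARM1, -0.54 for CHD4, -2.35 for HDAC2, -1.74 for GATAD2A and -2.59 for KDM1A. CHD4 was thus the least depleted, and it was also called lower in siCARM1 (-0.32). Of 9 genes known from HEK293 cells, 7 passed the expression filter, and NEFM and PAX2 did not. Of markers of other cell types, 1 of 4 for blood, 2 of 5 for luminal breast and 3 of 4 for fibroblasts passed the filter too. In mean FPKM (fragments scaled to exonic length and library size), PTPRC (blood) stood at 0.000414, ESR1 (luminal breast) at 0.0110 and DCN (fibroblasts) at 0.00104. These lay near 0, whereas GATA3 (luminal breast) stood at 3.59 and COL1A1 (fibroblasts) at 9.86.

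Levels between genes were compared as FPKM over the bases that belong to 1 gene only, as the mean of the 12 libraries. PCDHGC3 was the most abundant at 14.1 FPKM, followed by PCDHB2 at 8.58, PCDHGA11 at 6.94, PCDHGB5 at 5.41, PCDHB8 at 4.26, PCDHB11 at 3.59 and PCDHAC2, the highest alpha gene, at 2.77. The median of the 53 genes was 0.627 FPKM, and the lowest was PCDHA4 at 0.0281. A gene was tested when its FPKM over the whole exonic length exceeded 0.5 in the mean of at least 1 group, which 32 of the 53 met (7 alpha, 13 beta and 12 gamma). Of these, 22 passed in siCTL itself and 10 only through a knockdown in which they stood higher, 7 of them gamma genes, so counts over the 32 lean upward. The 10 were PCDHA12, PCDHB5, PCDHB6, PCDHGA4, PCDHGB2, PCDHGB3, PCDHGA6, PCDHGA9, PCDHGB6 and PCDHGB7. The counts of calls are therefore given over all 53 genes as well, from a model of the same form fitted without the filter. Its p-values followed a normal distribution of log2 fold change over standard error. A gene's own spread between its 2 libraries thus had almost no weight there, and calls came more easily. For PCDHGC4 in siCHD4 the unadjusted edgeR p was 2.84e-30 there and 7.39e-12 in the main fit. The log2 fold changes were -1.69 and -1.67. Shares of all genes given beside these counts come from that same fit.

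Knockdown of HDAC2, GATAD2A or KDM1A raised more clustered protocadherins than it lowered. In siCARM1 and siCHD4 more were called lower than higher, though over all 53 genes the total share called lay close to that of all genes. A gene was called at a p, adjusted by Benjamini-Hochberg over all genes of the comparison, of 0.05 or less in edgeR's quasi-likelihood test and a fold of at least 1.2. In siHDAC2, 19 of the 32 tested genes rose and 2 fell, where 10.6% of all tested genes rose and 9.00% fell. In siGATAD2A, 15 rose and 3 fell, against 15.7% and 18.2% of all tested genes. In siKDM1A, 11 rose and 4 fell, against 14.2% and 11.5%. Falls were the more frequent in the other two knockdowns. In siCARM1, 8 fell and 2 rose, against 14.5% and 14.9%. In siCHD4, 12 fell and 7 rose, against 24.9% and 24.0%. The median log2 fold change of the 32 was 0.56 in siHDAC2, 0.40 in siGATAD2A, 0.35 in siKDM1A, -0.12 in siCARM1 and -0.20 in siCHD4, while that of all tested genes lay between 0.00 and 0.01. The medians of the 32 lean upward through the filter. In the same order of groups, all 53 genes without it gave 0.65, 0.49, 0.33, -0.12 and -0.21. The 25 genes over the limit in the mean of all libraries gave 0.44, 0.03, 0.21, -0.21 and -0.26. The siGATAD2A median thus depended on the filter.

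The same order was seen over all 53 genes. Without the filter, 25 of 53 rose and 2 fell in siHDAC2, against 8.10% and 7.40% of the 17903 genes fitted. In siGATAD2A 22 rose and 4 fell (11.9% and 14.3% of all), and in siKDM1A 14 rose and 5 fell (11.0% and 9.23%). In siCARM1 10 fell and 2 rose (11.5% and 11.1%), and in siCHD4 16 fell and 7 rose (20.0% and 19.1%). In siCARM1 and siCHD4 the total share called lay close to that of all genes, and in siCHD4 the share that rose lay below it, so nothing about these genes is read from those totals. The plot of shares shows a wider gap in siKDM1A and the widest for the rises in siHDAC2 and siGATAD2A. A filter on the mean of all 12 libraries, which 25 genes passed, left 4 rises in siCHD4 (22.8% of all genes tested so) and 9 in siGATAD2A (15.5%), and the 2 falls in siHDAC2 (9.20%). Leaving out siCTL replicate 1 left 6 rises and 2 falls in siKDM1A, leaving out either siCTL library left 1 rise in siCARM1 and leaving out siHDAC2 replicate 1 left 1 fall in siHDAC2.

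**Figure D1:**
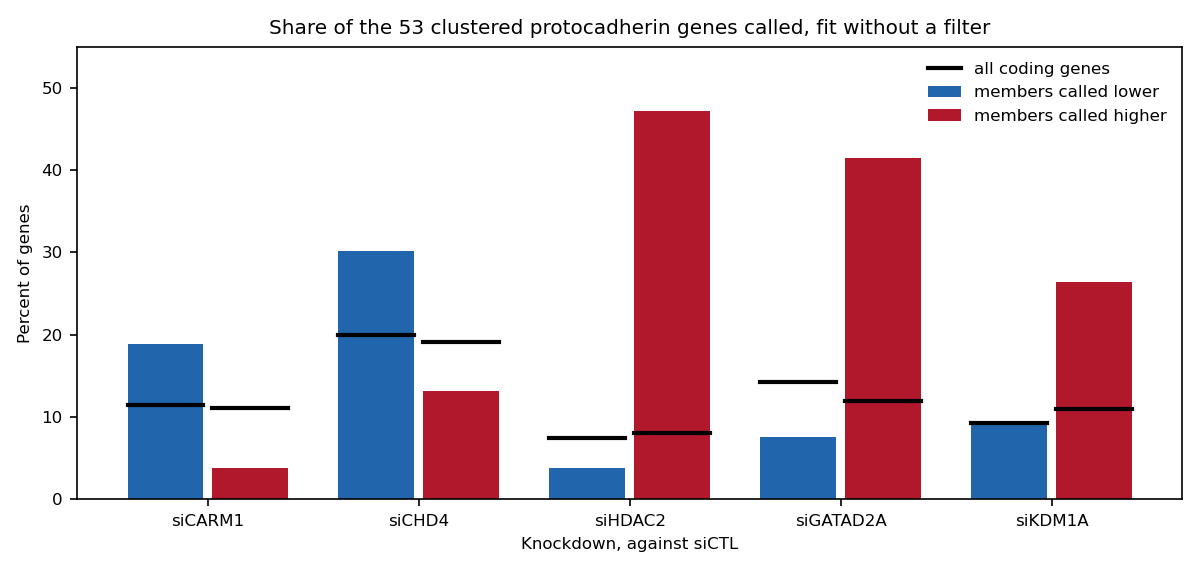
Percent of the 53 clustered protocadherin genes called lower (blue) or higher (red) in each knockdown against siCTL, in the fit without a filter. Black lines mark the percent of all 17903 coding genes fitted, and the red bars of siHDAC2 and siGATAD2A stand farthest above their lines, at 25 and 22 genes.

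Calls in at least 1 knockdown were made for 30 of the 32 tested genes, beside 73.0% of all tested genes, and 16 of the 30 only rose, 9 only fell and 5 rose in some knockdowns and fell in others. Without the filter they were made for 42 of 53, beside 58.3% of all genes fitted, and 24 only rose, 12 only fell and 6 did both. Of the tested genes, PCDHB10 and PCDHGB7 were called in none. The map of fold changes shows the directions along the 3 clusters. In the gamma cluster, 8 of 12 tested genes rose and 2 fell in siHDAC2 and again in siGATAD2A, and both that fell were PCDHGC3 and PCDHGC4 at the end of the cluster. Of all tested genes, 10.6% rose and 9.00% fell in siHDAC2, and 15.7% rose and 18.2% fell in siGATAD2A. Since 7 of the 12 gamma genes passed the filter only through a knockdown, the other fits matter here. Over all 22 gamma genes 12 rose in siHDAC2 and 13 in siGATAD2A, with 2 falls in each, and among the 7 that passed a filter on the mean of all libraries 4 rose and 2 fell in each. In the beta cluster, 9 of 13 rose and 0 fell in siHDAC2 (10 and 0 of all 16). In siCHD4, 2 rose and 7 fell (2 and 8 of 16), beside 24.0% and 24.9% of all tested genes. In the alpha cluster the most calls were in siGATAD2A, with 3 rises and 1 fall among 7 tested genes and 5 rises and 1 fall among all 15. The 1 alpha fall and 2 gamma falls in siGATAD2A lay near or below the share of all tested genes. So did the 2 beta rises in siCHD4, and nothing is read from those numbers. A lower count in bulk RNA cannot tell fewer expressing cells from less RNA per cell.

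**Figure D2:**
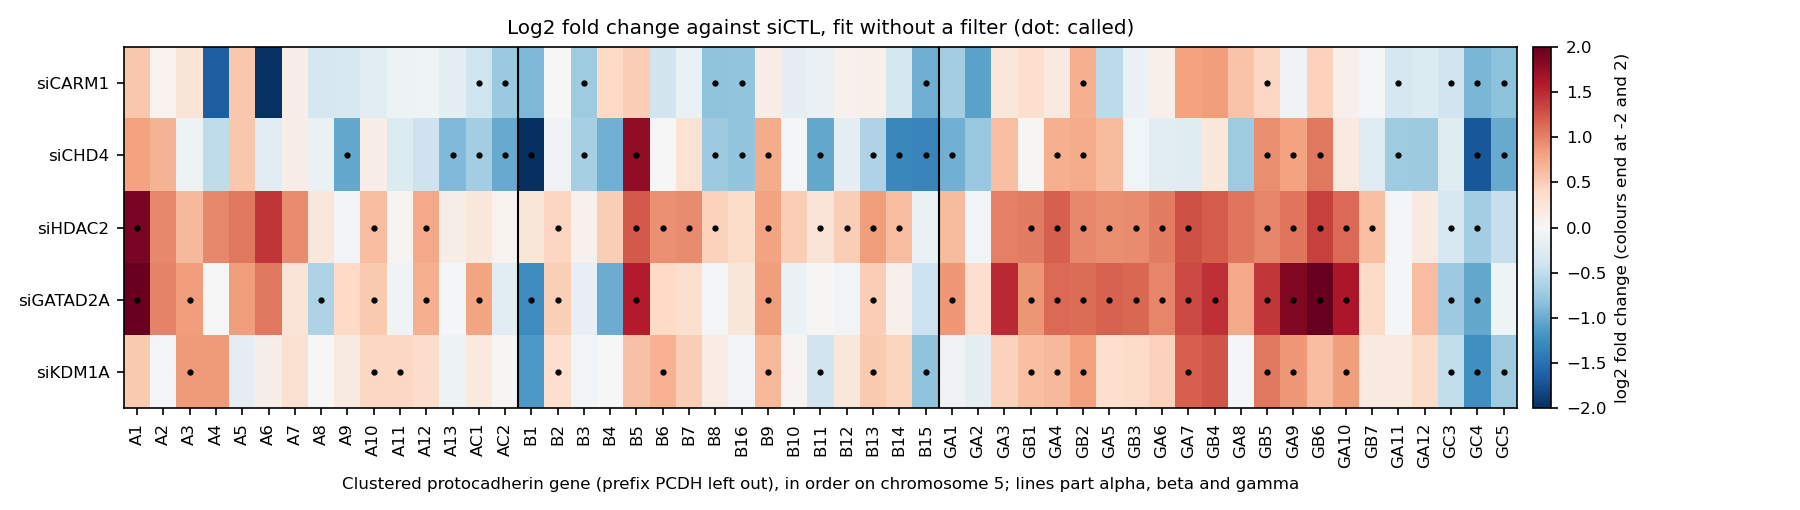
Log2 fold change of each clustered protocadherin gene (x axis, in order on chromosome 5, with black lines between alpha, beta and gamma) in each knockdown against siCTL (y axis), from the fit without a filter. Dots mark called genes. Red cells fill most of the gamma cluster in siHDAC2 and siGATAD2A, and the C-type genes GC3 and GC4 at its end are blue.

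PCDHGB5, a gamma protocadherin of the B subfamily and the most abundant gene of the PCDHGB group, rose in all 5 knockdowns. It stood at 9.24 and 7.87 in siCTL, 11.5 and 11.3 in siCARM1, 17.6 and 15.2 in siCHD4, 15.0 and 18.4 in siHDAC2, 22.6 and 23.1 in siGATAD2A and 20.0 and 15.7 in siKDM1A CPM, which is the count as a share of the library's counts on the tested genes after TMM scaling (the usual counts-per-million unit). Every knockdown library lay above both siCTL libraries, and siGATAD2A was the highest. The log2 fold change, with its SE from the edgeR fit over 2 libraries per group, was 1.42 ± 0.12 (adjusted p = 4.07e-11) in siGATAD2A, 1.06 ± 0.13 (adjusted p = 6.31e-08) in siKDM1A, 0.98 ± 0.13 (adjusted p = 4.99e-07) in siHDAC2, 0.94 ± 0.13 (adjusted p = 1.77e-07) in siCHD4 and 0.42 ± 0.14 (adjusted p = 0.0114) in siCARM1. The last call was lost without siCTL replicate 2 (0.30, adjusted p = 0.174). Of the 100-base stretches of PCDHGB5, 84.9% occur in no other clustered protocadherin. With 2 libraries against 2, the smallest two-sided p of an exact permutation test is 0.333, and therefore the model across all genes was used alone.

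PCDHGB2 was the other gene that rose in all 5 knockdowns. It passed the filter in the 5 knockdowns but not in siCTL, so its place among the tested genes rests on them. Without the filter it was called higher in all 5 as well. Its levels were 1.70 and 2.12 in siCTL, 2.97 and 3.39 in siCARM1, 2.83 and 3.71 in siCHD4, 3.81 and 3.73 in siHDAC2, 4.43 and 3.94 in siGATAD2A and 3.38 and 3.48 in siKDM1A CPM. All 10 knockdown libraries lay above both siCTL libraries, with siGATAD2A again the highest. The log2 fold change ranged from 0.72 ± 0.23 (adjusted p = 0.0101) in siCARM1 to 1.12 ± 0.22 (adjusted p = 6.41e-05) in siGATAD2A (edgeR). The call in siCARM1 was lost without siCTL replicate 1 (0.58, adjusted p = 0.0935) or siCARM1 replicate 2 (0.62, adjusted p = 0.0661), and that in siCHD4 without siCHD4 replicate 2 (0.55, adjusted p = 0.0939).

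Among the 32 tested genes, PCDHGB6 and PCDHGA9, neighbours near the end of the variable array, had the steepest rises after GATAD2A knockdown. Neither passed the filter in siCTL, so their place among the tested genes rests on knockdowns in which they stood higher. Without the filter their log2 fold changes in siGATAD2A were 2.03 and 1.84, and that of PCDHA1 was 1.97. PCDHGB6 was measured at 1.26 and 1.61 in siCTL, 2.7 and 1.19 in siCARM1, 2.91 and 3.19 in siCHD4, 4.33 and 3.28 in siHDAC2, 6.10 and 5.84 in siGATAD2A and 1.74 and 2.72 in siKDM1A CPM. The siGATAD2A libraries stood apart above all others, and the siCARM1 pair was split around the siCTL level. Its log2 fold change in edgeR was 2.04 ± 0.26 (adjusted p = 1.26e-07) in siGATAD2A, the largest of any clustered protocadherin tested there, 1.37 ± 0.29 (adjusted p = 0.000372) in siHDAC2 and 1.08 ± 0.30 (adjusted p = 0.00215) in siCHD4. It was not called in siKDM1A (0.63, adjusted p = 0.107) or siCARM1 (0.48, adjusted p = 0.228), although leaving out siCARM1 replicate 2 gave a call there (0.90, adjusted p = 0.0181), as did leaving out siKDM1A replicate 1 in siKDM1A (0.91, adjusted p = 0.0415). For PCDHGA9, of the A subfamily, levels were 1.42 and 1.15 in siCTL, 1.41 and 1.0 in siCARM1, 2.65 and 1.87 in siCHD4, 2.37 and 2.98 in siHDAC2, 4.68 and 4.56 in siGATAD2A and 2.24 and 2.47 in siKDM1A CPM. The siGATAD2A pair was again the highest, and the siCARM1 and siCTL libraries overlapped. The edgeR log2 fold change was 1.85 ± 0.25 (adjusted p = 1.95e-07) in siGATAD2A, 1.08 ± 0.27 (adjusted p = 0.00218) in siHDAC2, 0.88 ± 0.28 (adjusted p = 0.0108) in siKDM1A and 0.82 ± 0.28 (adjusted p = 0.0112) in siCHD4. The call in siGATAD2A held without any library, whereas 1 library ended the others, namely siHDAC2 replicate 2 (0.89, adjusted p = 0.0518), siCTL replicate 2 or siKDM1A replicate 2 in siKDM1A (0.73 and 0.81, adjusted p = 0.116 and 0.0693), and siCTL replicate 2 or siCHD4 replicate 1 in siCHD4 (0.66 and 0.54, adjusted p = 0.111 and 0.179).

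PCDHGA4 and PCDHGB1, which lie early in the gamma array, rose most after HDAC2 knockdown. PCDHGA4 passed the filter in 4 knockdowns but not in siCTL, whereas PCDHGB1 passed it in siCTL too. PCDHGA4 was found at 1.64 and 1.93 in siCTL, 2.17 and 1.91 in siCARM1, 2.69 and 3.28 in siCHD4, 4.18 and 4.10 in siHDAC2, 3.82 and 4.12 in siGATAD2A and 2.7 and 2.98 in siKDM1A CPM. The siHDAC2 and siGATAD2A libraries lay above all others, with siCHD4 and siKDM1A between them and siCTL. Its log2 fold change was 1.2 ± 0.22 (adjusted p = 6.57e-05) in siHDAC2, 1.14 ± 0.22 (adjusted p = 5.83e-05) in siGATAD2A, 0.73 ± 0.23 (adjusted p = 0.00611) in siCHD4 and 0.66 ± 0.23 (adjusted p = 0.0224) in siKDM1A by edgeR. DESeq2 did not call the siKDM1A change (adjusted p = 0.0680), which was also lost without siCTL replicate 1 (0.55, adjusted p = 0.129) or siKDM1A replicate 2 (0.58, adjusted p = 0.121), and the siCHD4 change was lost without siCTL replicate 1 (0.63, adjusted p = 0.0525) or siCHD4 replicate 2 (0.57, adjusted p = 0.0854). PCDHGB1 read 3.99 and 3.54 in siCTL, 5.41 and 4.01 in siCARM1, 4.33 and 3.41 in siCHD4, 8.25 and 7.27 in siHDAC2, 6.47 and 7.52 in siGATAD2A and 6.40 and 5.07 in siKDM1A CPM. Here siCHD4 overlapped siCTL, and siHDAC2, siGATAD2A and siKDM1A did not. The edgeR log2 fold change was 1.04 ± 0.18 (adjusted p = 3.64e-05) in siHDAC2, 0.89 ± 0.18 (adjusted p = 0.000125) in siGATAD2A and 0.61 ± 0.19 (adjusted p = 0.00998) in siKDM1A. The siKDM1A call of PCDHGB1 ended without siCTL replicate 2 (0.51, adjusted p = 0.103), without siKDM1A replicate 1 (0.43, adjusted p = 0.142) or with counts taken without regard to strand (0.52, adjusted p = 0.0512). PCDHGB3 and PCDHGA6 also rose in siHDAC2 and siGATAD2A, by log2 fold changes of 0.96 and 1.15 and of 1.04 and 0.98. Both passed the filter through 2 knockdowns only.

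The C-type genes of the gamma cluster went the other way. PCDHGC4, whose mouse counterpart is known for its part in the survival of neurons, fell in all 5 knockdowns. Its levels were 11.5 and 13.5 in siCTL, 7.54 and 5.73 in siCARM1, 4.2 and 3.71 in siCHD4, 8.30 and 7.53 in siHDAC2, 6.10 and 6.28 in siGATAD2A and 4.84 and 5.95 in siKDM1A CPM. No knockdown library reached the siCTL range, and the siCHD4 libraries were the lowest. The log2 fold change was -1.67 ± 0.16 (adjusted p = 8.12e-11) in siCHD4, -1.22 ± 0.15 (adjusted p = 7.68e-08) in siKDM1A, -1.02 ± 0.14 (adjusted p = 5.61e-07) in siGATAD2A, -0.91 ± 0.14 (adjusted p = 4.43e-06) in siCARM1 and -0.67 ± 0.14 (adjusted p = 0.000331) in siHDAC2 (edgeR). These calls held without any single library.

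PCDHGC3, the most abundant clustered protocadherin in these cells and known to be expressed outside the nervous system too, fell in 4 knockdowns. It was counted at 59.7 and 63.8 in siCTL, 47.8 and 48.0 in siCARM1, 54.0 and 51.9 in siCHD4, 47.1 and 52.0 in siHDAC2, 36.4 and 38.6 in siGATAD2A and 44.6 and 43.8 in siKDM1A CPM. Both siCTL libraries lay above all 10 others, and siGATAD2A was the lowest. By edgeR its log2 fold change was -0.72 ± 0.06 (adjusted p = 7.24e-11) in siGATAD2A, -0.48 ± 0.06 (adjusted p = 2.96e-07) in siKDM1A, -0.37 ± 0.06 (adjusted p = 1.5e-05) in siCARM1 and -0.31 ± 0.06 (adjusted p = 0.000213) in siHDAC2. In siCHD4 the log2 fold change of PCDHGC3 was -0.22 ± 0.06 (adjusted p = 0.00233), short of the 1.2-fold minimum, and it passed that minimum without siCTL replicate 1 (-0.27, adjusted p = 0.00297) or siCHD4 replicate 1 (-0.26, adjusted p = 0.00558). Without siHDAC2 replicate 1 the value in siHDAC2 was -0.25 (adjusted p = 0.00994), also short of the minimum. PCDHGA11, which lies near the end of the variable array, fell in siCARM1 (-0.33 ± 0.08, adjusted p = 0.00167) and siCHD4 (-0.70 ± 0.09, adjusted p = 2.7e-08) and was called in no other knockdown.

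In the beta cluster the direction differed between knockdowns. PCDHB11, the third most abundant beta gene, was measured at 19.1 and 16.2 in siCTL, 15.9 and 16.6 in siCARM1, 8.57 and 9.07 in siCHD4, 22.0 and 20.7 in siHDAC2, 18.2 and 17.8 in siGATAD2A and 13.2 and 13.9 in siKDM1A CPM. The siCHD4 libraries lay far below all others and the siHDAC2 libraries above all others. Its log2 fold change was -1.0 ± 0.11 (adjusted p = 1.91e-09) in siCHD4, -0.38 ± 0.10 (adjusted p = 0.00315) in siKDM1A and 0.27 ± 0.10 (adjusted p = 0.0253) in siHDAC2 (edgeR). The fall in siCHD4 held without any library. The rise in siHDAC2 was lost with DESeq2 (adjusted p = 0.0783), with libraries thinned to the smallest total (0.23, adjusted p = 0.0688), after a correction for GC content (0.22) and without siCTL replicate 2 (0.15, adjusted p = 0.350) or siHDAC2 replicate 1 (0.23, adjusted p = 0.146), and the fall in siKDM1A without siCTL replicate 1 (-0.26, adjusted p = 0.0916).

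PCDHB13 fell in siCHD4 and rose in 3 knockdowns. It stood at 6.29 and 6.53 in siCTL, 7.35 and 6.44 in siCARM1, 4.06 and 4.43 in siCHD4, 13.1 and 10.3 in siHDAC2, 9.07 and 9.03 in siGATAD2A and 9.50 and 9.05 in siKDM1A CPM. The siCHD4 pair lay below siCTL, siCARM1 overlapped it, and the remaining groups lay above. Its edgeR log2 fold change was -0.59 ± 0.16 (adjusted p = 0.00194) in siCHD4, 0.85 ± 0.14 (adjusted p = 1.55e-05) in siHDAC2, 0.53 ± 0.14 (adjusted p = 0.00333) in siKDM1A and 0.50 ± 0.14 (adjusted p = 0.00452) in siGATAD2A. PCDHB8, in contrast, fell in siCARM1 as well. Its levels were 13.4 and 11.0 in siCTL, 7.81 and 6.01 in siCARM1, 7.99 and 6.94 in siCHD4, 15.8 and 17.8 in siHDAC2, 11.3 and 12.5 in siGATAD2A and 14.0 and 13.1 in siKDM1A CPM, with the siCARM1 and siCHD4 libraries below siCTL, the siHDAC2 libraries above it and the siGATAD2A libraries within its range. The log2 fold change of PCDHB8 was -0.80 ± 0.14 (adjusted p = 1.67e-05) in siCARM1, -0.70 ± 0.14 (adjusted p = 4.24e-05) in siCHD4 and 0.48 ± 0.12 (adjusted p = 0.00266) in siHDAC2. PCDHB8 is also the member with the smallest share of unique sequence, and its siHDAC2 call was lost without siCTL replicate 2 (0.33, adjusted p = 0.101) or siHDAC2 replicate 2 (0.38, adjusted p = 0.0653).

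PCDHB15, the last gene of the cluster, only fell. It was found at 3.45 and 3.08 in siCTL, 1.60 and 1.72 in siCARM1, 1.19 and 1.45 in siCHD4, 3.71 and 2.38 in siHDAC2, 2.16 and 2.7 in siGATAD2A and 2.01 and 1.76 in siKDM1A CPM. The siCARM1, siCHD4, siGATAD2A and siKDM1A libraries lay below siCTL, and siHDAC2 was spread around it. Its log2 fold change by edgeR was -1.29 ± 0.26 (adjusted p = 7.94e-05) in siCHD4, -0.97 ± 0.25 (adjusted p = 0.00192) in siCARM1, the largest change called in siCARM1 among the 32 tested genes, and -0.79 ± 0.25 (adjusted p = 0.0105) in siKDM1A. The siKDM1A call was lost without siCTL replicate 1 (-0.71, adjusted p = 0.0674) or siKDM1A replicate 2 (-0.69, adjusted p = 0.0836). PCDHB3 and PCDHB16 likewise fell in siCARM1 (-0.70 and -0.79) and in siCHD4 (-0.65 and -0.77), and PCDHB14 fell in siCHD4 (-1.27) and rose in siHDAC2 (0.62).

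The beta genes PCDHB2, PCDHB5 and PCDHB9 rose and were called lower in no knockdown. PCDHB2, the most abundant beta gene, was measured at 30.8 and 33.4 in siCTL, 30.5 and 33.8 in siCARM1, 30.4 and 31.5 in siCHD4, 40.9 and 45.8 in siHDAC2, 44.2 and 45.6 in siGATAD2A and 40.0 and 41.8 in siKDM1A CPM. siCARM1 and siCHD4 overlapped siCTL, and the other three knockdowns did not. The log2 fold change was 0.48 ± 0.07 (adjusted p = 2.06e-06) in siGATAD2A, 0.44 ± 0.07 (adjusted p = 2.46e-05) in siHDAC2 and 0.35 ± 0.07 (adjusted p = 0.00032) in siKDM1A (edgeR). PCDHB9 read 1.86 and 2.90 in siCTL, 2.67 and 2.72 in siCARM1, 4.33 and 3.88 in siCHD4, 3.97 and 4.51 in siHDAC2, 4.03 and 4.69 in siGATAD2A and 3.75 and 3.94 in siKDM1A CPM, with the siCARM1 libraries inside the siCTL range and all other knockdown libraries above it. It rose in those 4 groups by log2 fold changes of 0.85 ± 0.21 (adjusted p = 0.00112) in siGATAD2A, 0.82 ± 0.21 (adjusted p = 0.00285) in siHDAC2, 0.76 ± 0.21 (adjusted p = 0.00235) in siCHD4 and 0.67 ± 0.21 (adjusted p = 0.0124) in siKDM1A. Its siCTL libraries differed more than most, and without siCTL replicate 1 the calls of PCDHB9 in siHDAC2 (0.56, adjusted p = 0.0809), siCHD4 (0.50, adjusted p = 0.0728) and siKDM1A (0.41, adjusted p = 0.199) were lost, the last also without siKDM1A replicate 2 (0.63, adjusted p = 0.0665).

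PCDHB5 had the largest change called in siCHD4 among the 32 tested genes, from a low level, and it passed the filter through siCHD4 alone. Its counts were 9 and 13 in siCTL, 22 and 15 in siCARM1, 37 and 52 in siCHD4, 26 and 34 in siHDAC2, 35 and 43 in siGATAD2A and 22 and 16 in siKDM1A. All knockdown libraries lay above the siCTL level in CPM. The edgeR log2 fold change was 1.80 ± 0.36 (adjusted p = 6.21e-05) in siCHD4, 1.58 ± 0.37 (adjusted p = 0.000624) in siGATAD2A and 1.23 ± 0.39 (adjusted p = 0.0138) in siHDAC2. The call of PCDHB5 in siHDAC2 was lost without siCTL replicate 1, siCTL replicate 2 or siHDAC2 replicate 1 (1.11, 1.39 and 1.19, adjusted p = 0.0820, 0.0541 and 0.0502). In siCHD4 it rose with PCDHB9 in a cluster where 7 genes fell.

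In the alpha cluster PCDHA10 rose in 3 knockdowns. It stood at 9.95 and 12.6 in siCTL, 9.60 and 10.0 in siCARM1, 12.1 and 13.2 in siCHD4, 17.1 and 17.8 in siHDAC2, 15.9 and 17.0 in siGATAD2A and 15.4 and 14.9 in siKDM1A CPM. The siHDAC2, siGATAD2A and siKDM1A libraries lay above siCTL, and the siCHD4 pair overlapped it. Its log2 fold change was 0.62 ± 0.11 (adjusted p = 4.58e-05) in siHDAC2, 0.54 ± 0.11 (adjusted p = 0.00014) in siGATAD2A and 0.42 ± 0.11 (adjusted p = 0.00316) in siKDM1A by edgeR. Without siCTL replicate 1 the siKDM1A call was lost (0.27, adjusted p = 0.106) and a fall in siCARM1 was called (-0.36, adjusted p = 0.0291), and without siCTL replicate 2 a rise in siCHD4 was called (0.34, adjusted p = 0.0399).

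PCDHAC2, the C-type gene at the end of the alpha cluster and its most abundant member, fell in siCARM1 and siCHD4. Its levels were 11.9 and 11.2 in siCTL, 7.08 and 6.82 in siCARM1, 5.83 and 5.75 in siCHD4, 11.6 and 12.7 in siHDAC2, 10.4 and 9.42 in siGATAD2A and 11.8 and 11.9 in siKDM1A CPM. The siCARM1 and siCHD4 libraries lay well under siCTL, and siHDAC2 and siKDM1A were at its level. The log2 fold change of PCDHAC2 was -0.99 ± 0.13 (adjusted p = 4.84e-08) in siCHD4 and -0.73 ± 0.12 (adjusted p = 1.28e-05) in siCARM1 (edgeR), and both calls held without any single library. Its C-type neighbour PCDHAC1 fell in siCHD4 (-0.67, adjusted p = 0.00131) and rose in siGATAD2A (0.79, adjusted p = 4.61e-05). Among the other alpha genes, PCDHA12 rose in siHDAC2 (0.76) and siGATAD2A (0.71), PCDHA11 rose in siKDM1A (0.43), PCDHA13 fell in siCHD4 (-0.87) and PCDHA8 fell in siGATAD2A (-0.61).

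The 21 genes under the expression filter were seen only in the fit without it, where calls came more easily, and rest on few counts. In that fit 5 of them rose in siHDAC2 and 7 in siGATAD2A, where 8.10% and 11.9% of all genes fitted rose. In siKDM1A 3 rose and in siCHD4 4 fell, near the 11.0% and 20.0% of all genes fitted. In siCARM1, siGATAD2A and siKDM1A 1 of them fell, below the 11.5%, 14.3% and 9.23% of all genes fitted. Nothing is read from these numbers of falls. The genes were PCDHGC5 in siCARM1 and siKDM1A and PCDHB1 in siGATAD2A (-1.26 ± 0.53, adjusted p = 0.0455 by edgeR). PCDHA1, the first gene of the alpha cluster, had 7 and 11 counts in siCTL, 36 and 42 in siHDAC2 and 35 and 49 in siGATAD2A. Its log2 fold change was 1.89 ± 0.41 (adjusted p = 4.99e-05) in siHDAC2 and 1.97 ± 0.41 (adjusted p = 7.75e-06) in siGATAD2A (edgeR). PCDHGA10 had 14 and 22 counts in siCTL and 65 and 66 in siGATAD2A, a log2 fold change of 1.62 ± 0.31 (adjusted p = 1.15e-06). PCDHB1, a beta gene that stands apart from the others at the start of its cluster, went down from 11 and 24 counts in siCTL to 2 and 5 in siCHD4, a log2 fold change of -2.50 ± 0.64 (adjusted p = 0.000286). PCDHGC5, the last C-type gene, had 31 and 59 counts in siCTL and 16 and 36 in siCHD4 and fell there by edgeR (-1.01 ± 0.30, adjusted p = 0.0022). PCDHGC5 was also called lower in siCARM1 and siKDM1A, so every called change of a C-type gamma gene against siCTL was a fall. In siHDAC2 and siGATAD2A PCDHGC5 was not called (-0.46 and -0.086). It was called higher in siGATAD2A than in siCARM1 (0.73 ± 0.29, adjusted p = 0.0305 by edgeR). These 4 genes were picked for description after their values were seen.

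The knockdowns were then compared with siCARM1, which tests whether their effects on a gene differ. The 4 comparisons share the siCARM1 libraries. Clustered protocadherins differed most between siHDAC2 and siCARM1, where 26 of 32 were called, all higher in siHDAC2, against 10.1% of all tested genes called higher and 9.28% called lower. Over all 53 genes, each log2 fold change between the pair was above 0 and 32 were called higher and 0 lower (7.76% and 7.15% of all genes fitted). Between siGATAD2A and siCARM1, 20 of 32 were called, 19 higher and 1 lower (15.2% and 18.6% of all tested genes), and 26 of 53 were higher and 2 lower without the filter (11.9% and 14.2%). Between siKDM1A and siCARM1 14 of 32 were called, all higher (11.4% of all tested genes were higher, 9.53% lower and 21.0% either). Without the filter 17 of 53 were higher in siKDM1A than in siCARM1 (9.27%). Between siCHD4 and siCARM1, 13 of 32 were called, 7 higher and 6 lower, beside 23.3% and 24.5% of all tested genes and 47.7% in either direction, and without the filter 8 of 53 were higher and 9 lower (18.7% and 19.2%).

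PCDHB8 was higher in siHDAC2 than in siCARM1 by a log2 value of 1.27 ± 0.13 (adjusted p = 4.12e-09), and PCDHB16 by 1.16 ± 0.17 (adjusted p = 2.99e-06). PCDHAC2 was higher than in siCARM1 in siHDAC2 (0.81), siKDM1A (0.76) and siGATAD2A (0.51), with adjusted p of 3.58e-06, 6.93e-06 and 0.00083 in edgeR. PCDHGB6 exceeded its siCARM1 level in siGATAD2A by 1.56 ± 0.24 (adjusted p = 1.98e-06). Of the 32 tested genes, PCDHGC3 was the 1 called lower in siGATAD2A than in siCARM1, by -0.35 ± 0.07 (adjusted p = 3.44e-05). Without the filter PCDHB4 was called lower there too (-1.38, adjusted p = 0.00829). PCDHGC4 was lower in siCHD4 than in siCARM1 (-0.76 ± 0.17, adjusted p = 0.000208), and PCDHB11 was too (-0.88 ± 0.11, adjusted p = 2.06e-08).

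Levels were also summed over the genes of a cluster. The beta cluster stood at 91.4 ± 0.512 CPM (SD, n = 2, over the counts on all genes) in siCTL, 125 ± 1.16 in siHDAC2, 108 ± 2.76 in siGATAD2A, 102.6 ± 0.875 in siKDM1A, 80.8 ± 2.94 in siCARM1 and 68.8 ± 1.24 in siCHD4. No pair of libraries of a knockdown overlapped siCTL. The gamma cluster summed to 129.7 ± 5.54 CPM in siCTL, 141 ± 2.62 in siHDAC2, 140.8 ± 5.09 in siGATAD2A, 128.9 ± 2.95 in siKDM1A, 109.9 ± 3.54 in siCARM1 and 109.9 ± 0.547 in siCHD4, with rises of PCDHGA and PCDHGB genes beside the fall of the abundant PCDHGC3. The alpha cluster had 48.3 ± 4.32 CPM in siCTL, 61.4 ± 0.460 in siHDAC2, 59.0 ± 1.97 in siGATAD2A, 57.3 ± 2.48 in siKDM1A, 39.2 ± 1.77 in siCARM1 and 37 ± 1.01 in siCHD4. These sums are a description and were not tested.

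Alpha genes are known to be overlapped by antisense transcripts that begin inside their variable exons, and the counts of the opposite strand were read for that reason. Opposite-strand counts made up a median of 8.53% of the counts on both strands in the alpha cluster, 0.859% in the beta cluster, 0.723% in the gamma cluster and 0.902% in all tested genes. Over summed counts the gap was smaller, with 6.48% in alpha, 1.13% in beta, 1.23% in gamma and 3.37% in all tested genes. PCDHA6 had the highest share, 65.4%, followed by PCDHA7 (53.4%), PCDHA2 (43.2%) and PCDHA5 (41.7%). These shares rest on only 37, 61, 79 and 70 counts on the genes' own strand, summed over 12 libraries. The most opposite-strand counts were in PCDHA10 (181), PCDHA11 (162) and PCDHA12 (157), at shares of 4.57%, 8.48% and 17.0%. The C-type genes of the cluster were at background, with 0.513% in PCDHAC1 and 0.642% in PCDHAC2. The parts of annotated antisense genes and of imperfect strand marking in these shares were not tested.

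Genes that act on or beside the clusters were read from lists. Their counts stand beside the 9.00 to 24.9% of all tested genes called in a direction in a knockdown, and with so few genes nothing particular to a list is read from them. Of 12 genes of CTCF and cohesin, the proteins that loop protocadherin promoters to enhancers, 0 or 1 fell and 1 or 2 rose in each knockdown. CTCF was not called, with log2 fold changes from -0.12 to 0.16, and neither was the cohesin subunit RAD21 (-0.24 to -0.06). CTCFL, the germ-line paralog of CTCF, rose in all 5 knockdowns, with counts of 8 and 12 in siCTL and 681 and 705 in siCHD4, and log2 fold changes of 5.90 ± 0.25 (adjusted p = 4.61e-19) in siCHD4, 3.59 ± 0.32 (adjusted p = 5.93e-11) in siGATAD2A, 2.36 ± 0.38 (adjusted p = 1.34e-05) in siHDAC2, 2.03 ± 0.40 (adjusted p = 0.000126) in siKDM1A and 1.34 ± 0.44 (adjusted p = 0.013) in siCARM1. CTCFL had few counts in siCTL, so its place among the tested genes may rest on knockdowns in which it stood higher. Among 14 silencing genes, 1 to 4 fell and 0 to 2 rose per knockdown. SMCHD1, which represses these clusters, rose in siGATAD2A (0.42), the DNA methyltransferase DNMT3B rose in siKDM1A (0.28), its relative DNMT3A, named after its values were seen, fell in siCHD4 (-0.76), siCARM1 (-0.40) and siGATAD2A (-0.31), and the histone methyltransferase SETDB1 was not called. CBX3, a heterochromatin protein, fell in siCHD4, siKDM1A, siHDAC2 and siGATAD2A (log2 fold changes -0.48, -0.45, -0.28 and -0.27). Whether any of these moved the clustered protocadherins was not tested.

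The non-clustered protocadherins, relatives that lie outside the clusters, were read beside them. Of 11, 5 were tested, and all 5 rose in siCARM1 and in siHDAC2, beside 14.9% and 10.6% of all tested genes. The filter could be passed through any group, so genes of these lists may be tested only because a knockdown raised them. With so few genes nothing particular to a list is read from these counts. PCDH10 rose in all 5 knockdowns by log2 fold changes of 1.77 to 2.42, and PCDH1 by 0.91 to 2.64. PCDH7 rose in 4, with 0.08 in siCHD4, and PCDH18 rose in siCARM1, siHDAC2 and siKDM1A (0.66, 0.60 and 0.70) but fell in siCHD4 and siGATAD2A (-0.81 and -0.68). Of 13 classical cadherins 5 were tested, and CDH4 rose in all 5 knockdowns (1.17 to 2.88). Of 15 partners in signalling and processing, 0 to 3 fell and 2 to 5 rose per knockdown, and BRK1, a subunit of the WAVE complex that many protocadherins bind, rose in 4 (0.37 to 0.46). Among the 30 tested genes within 1 Mb of the clusters that are no clustered protocadherins, 1 rose and 4 fell in siHDAC2. There 10.6% of all tested genes rose and 9.00% fell, and 19 of the 32 clustered genes (25 of 53 without the filter) rose. In siGATAD2A 9 of the neighbours rose and 3 fell, beside 15.7% and 18.2% of all tested genes. In siCHD4 7 rose and 7 fell (24.0% and 24.9% of all tested genes). In siCARM1 4 rose and 3 fell (14.9% and 14.5%), and in siKDM1A 4 and 2 (14.2% and 11.5%). Nothing is read from the counts in siCHD4, siCARM1 and siKDM1A, which lay near or below those shares. PCDH1 and SPRY4, an inhibitor of growth factor signalling, were the neighbours called in at least 4 knockdowns, and SPRY4 fell in siHDAC2 (-1.44) and rose in siCHD4 (3.15), siGATAD2A (2.56) and siKDM1A (0.66).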

How the data were processed

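RNA-seq of 12 libraries of HEK293T cells was used, 2 for each of 6 siRNA groups. Per library, the authors deposited unnormalized counts of fragments for each Ensembl gene in STAR's layout, with 3 columns, 1 unstranded and 1 per strand. The submitters' processing notes name CASAVA 1.4, STAR 2.7.10 and hg19, the methods of the study name TopHat and HOMER, and the annotation release is not given in the sources used here. The kit is directional, so the reverse-strand column was read, and the forward strand held only 7.93 to 8.40% as many. Per library 2.66 to 3.42% of fragments were unmapped, 5.44 to 10.6% mapped to several places, 17.2 to 21.2% lay on no feature and 5.50 to 6.22% were ambiguous, and these stayed out of all totals. Totals of 19308315 to 28648657 counts on genes set the precision, and low genes are limited by counting error.

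Identifiers were matched to GENCODE release 44 mapped to GRCh37 (58662 of 60660, 96.7%). CPM, FPKM and log2 fold changes were computed from the counts. Coding genes with FPKM over 0.5 in the mean of at least 1 group (12830) were tested with edgeR 4.0.16 (R 4.3.3), TMM factors of 0.968 to 1.01 and a model of 6 group means, with Benjamini-Hochberg adjustment over all genes of a comparison. The adjusted p and FPKM limits follow the study's methods, except that FPKM was asked of any of the 6 groups and not of the pair compared, and the fold minimum follows its results. edgeR's quasi-likelihood test was used in place of the study's DESeq2, and DESeq2 1.42.0 was an alternative, as were RLE size factors, fits of 2 groups alone, a replicate block, other filters, unstranded counts, other fold minimums, a GC correction, thinned libraries and each library left out in turn. The scripts were tested on simulated data. Replicates varied beyond sampling noise, so none was counted as a duplicate. Genes described in every library were those called in at least 3 of 5 knockdowns, the most abundant of each cluster and the largest change called in each knockdown. Members, lists and rules were chosen with earlier results of these data known. Letters in promoters beyond CGCT, thinning and counts over all 53 genes were added after the data were seen. Protein sequences were not analysed here. A further gene of the marker lists is not reported here.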

Additional observations from a re-analysis of the deposited data

Results flagged for a closer look

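Counts on the strand opposite to the genes, which no comparison above uses, were higher than in both siCTL libraries in 2 knockdowns. Over the 15 alpha genes they came to 3.57 and 3.38 CPM in siCTL, and to a mean of 4.99 in siHDAC2 (4.61 and 5.38) and of 4.09 in siKDM1A (4.17 and 4.0). The siCHD4 libraries stood lowest, at 1.46 and 1.84, from 36 and 47 counts. Over the 16 beta genes the siCTL libraries had 1.14 and 1.21 CPM, against a mean of 1.45 in siHDAC2 (1.5 and 1.4) and of 1.52 in siKDM1A (1.29 and 1.74), from 30 to 44 counts per library. In the gamma cluster no knockdown had both libraries above siCTL. The summed counts of the genes themselves on their own strand were also higher in siHDAC2 and siKDM1A in both clusters, and the part of imperfect strand marking was not tested.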

How the results depend on the processing

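Of 1646 values computed under other settings, 1390 were of single named genes. Of these, 1281 kept their direction and side of the threshold, 79 lost a call, 10 gained one and 20 turned direction, none of them called. DESeq2, RLE size factors, the fit without a filter, counts without regard to strand, the GC correction (which moved the median log2 fold change of these genes by -0.02 to -0.10 against siCTL) and thinning kept each count of calls over the 3 clusters together within 1.5 times. In single clusters the fit without a filter, with more genes, gave 13 rises against 8 in gamma and 5 against 3 in alpha in siGATAD2A, and 4 falls against 2 in gamma in siCHD4. Counts changed under stricter limits. With FPKM over 0.5 in the mean of all libraries, 25 genes were tested and 4 rose in siCHD4 and 9 in siGATAD2A. With FPKM over 1, 16 genes were tested and 1, 1, 8, 6 and 6 rose in siCARM1, siCHD4, siHDAC2, siGATAD2A and siKDM1A, and 6, 13 and 11 differed from siCARM1 in siCHD4, siHDAC2 and siGATAD2A, with fewer genes tested. With a fold of at least 2, calls lower and higher were 0 and 0 in siCARM1, 3 and 2 in siCHD4, 0 and 6 in siHDAC2, 1 and 7 in siGATAD2A and 1 and 1 in siKDM1A, and 1, 6, 7 and 1 differed from siCARM1 in siCHD4, siHDAC2, siGATAD2A and siKDM1A. Without regard to strand the log2 ratio of the beta sum to siCTL was -0.50 in siCHD4, 0.17 in siGATAD2A and 0.14 in siKDM1A, and the cause was not tested.

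Same-numbered replicates did not deviate together (r from -0.142 to 0.136 over 15 pairs of groups), so the numbers were taken as names only. With a replicate block the calls lower and higher were 8 and 2 in siCARM1, 12 and 7 in siCHD4, 2 and 19 in siHDAC2, 3 and 15 in siGATAD2A and 4 and 11 in siKDM1A, and 13, 26, 20 and 14 genes differed from siCARM1, and PCDHB2 in siCARM1 stood at 0.000171. In a fit of siHDAC2 and siCARM1 alone the block gave 24 calls and a crossed pairing of the numbers 26.

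With each library left out in turn, 7 to 10 genes fell and 1 to 3 rose in siCARM1, 9 to 13 fell and 5 to 7 rose in siCHD4, 1 to 2 fell and 15 to 16 rose in siHDAC2, 2 to 3 fell and 14 to 15 rose in siGATAD2A, and 2 to 4 fell and 6 to 10 rose in siKDM1A. Against siCARM1, 9 to 13 genes differed in siCHD4, 21 to 22 in siHDAC2, 14 to 19 in siGATAD2A and 11 to 13 in siKDM1A. Leaving out either siCTL library left 1 rise in siCARM1, siCTL replicate 1 left 2 falls and 6 rises in siKDM1A and 2 falls in siGATAD2A, and siHDAC2 replicate 1 left 1 fall in siHDAC2. The direction of uncalled log2 fold changes turned without a library for these genes, given as the lowest and highest value over the libraries left out. In siCARM1 the ranges were -0.081 to 0.073 for PCDHB2, -0.11 to 0.53 for PCDHB9, -0.35 to 0.14 for PCDHGA9 and -0.28 to 0.90 for PCDHGB6. In siCHD4 they were -0.11 to 0.0022 for PCDHB2 and -0.15 to 0.20 for PCDHGB1, and in siHDAC2 -0.45 to 0.19 for PCDHB15. In siGATAD2A they were -0.18 to 0.11 for PCDHB8 and -0.086 to 0.15 for PCDHB11, and in siKDM1A -0.0080 to 0.075 for PCDHAC2. It also turned for PCDHGB1 in siCHD4 without regard to strand (-0.10), for PCDHB2 in siCARM1 at FPKM over 1 (0.0026) and with the GC correction for PCDHGB1 in siCHD4 (-0.061), PCDHB11 in siGATAD2A (-0.0074) and PCDHAC2 in siKDM1A (-0.028).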

Other observations

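Several genes under the expression filter moved in the fit without it, where calls came more easily, on low counts. PCDHA3, a variable alpha gene, rose in siGATAD2A and siKDM1A by log2 fold changes of 0.84 ± 0.28 (adjusted p = 0.00951) and 0.85 ± 0.28 (adjusted p = 0.01) in edgeR, from 22 and 32 counts in siCTL to 50 and 64 and 63 and 49. PCDHGA7, of the gamma A subfamily, was called higher in siHDAC2 (1.28 ± 0.35, adjusted p = 0.00187), siGATAD2A (1.32 ± 0.35, adjusted p = 0.000582) and siKDM1A (1.2 ± 0.35, adjusted p = 0.00337), although its siCTL libraries, at 24 and 6 counts, differed widely. PCDHGA5 rose in siHDAC2 (0.93 ± 0.31, adjusted p = 0.012) and siGATAD2A (1.18 ± 0.30, adjusted p = 0.000329), PCDHGB4 in siGATAD2A (1.45 ± 0.51, adjusted p = 0.0135) and PCDHB7 in siHDAC2 (0.94 ± 0.34, adjusted p = 0.0234). PCDHA9 fell in siCHD4 (-1.03 ± 0.35, adjusted p = 0.00806), and PCDHGA1 fell in siCHD4 (-0.96 ± 0.37, adjusted p = 0.02) and rose in siGATAD2A (0.86 ± 0.29, adjusted p = 0.00965). These genes were named after their values were seen.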
